A study of Mus musculus with 24 samples.

Results

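Leukemias that arose in irradiated Pax5+/- mice were compared with leukemias that arose in irradiated wild-type mice. The comparison took the 10 leukemic arrays of Pax5+/- mice and the 4 leukemic arrays of wild-type mice, 14 of the 24 arrays of the series, and covered 15647 named genes. Pax5+/- mice carry 1 disrupted and 1 intact Pax5 allele. All mice of both genotypes had received 2 Gy of ionizing radiation, and every array came from marrow that held tumor. The labels put all samples at 3 weeks after irradiation, leukemic ones included, so the age of the mice at leukemia is not known here. The labels do not say how the Pax5 allele was disrupted, or whether the intact allele was kept in the leukemias. The other 10 arrays came from irradiated mice without leukemia, 7 Pax5+/- and 3 wild type, and were used only to set the leukemic differences beside those before leukemia. The labels call the leukemic samples bone marrow B cells and the preleukemic ones bone marrow pro/pre-B cells. Stage and sampled cell population therefore cannot be told apart. Each value is the deposited log2 signal of a gene, so a difference of 1 is a 2-fold change. The question was which transcripts separate radiation-induced B-cell leukemia with the inherited Pax5 mutation from the same disease without it.

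The label of B cells was checked against B-lineage genes. Cd79b, the signal chain of the B-cell receptor, lay between 11.70 and 12.66 on all 14 arrays, and its partner Cd79a lay between 10.46 and 12.28. Igll1, a surrogate light chain gene of the pre-B-cell receptor, lay between 9.81 and 13.21. These values were above the dim level, the 30th percentile of each array, which ran from 5.18 to 5.35. The mean of 21 tested pro-B and pre-B genes ran from 9.03 to 10.29 on the leukemic arrays, below the 10.77 to 11.12 of the preleukemic arrays. The latter are labelled as pro/pre-B cells. Markers of other marrow cells were present too, since the mean of 20 granulocyte genes ran from 6.20 to 10.46. In such bulk samples fewer cells of a type and less RNA per cell cannot be told apart.

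Several leukemic arrays stood apart from the others. Wild-type replicate 2 had the lowest signal of the 14 arrays in Pax5 (6.34), Rag1 (6.18), Blnk (6.45), Igll1 (9.81) and Cd79a (10.46). It had the highest signal in the lymphocyte genes Ncr1 (10.41), Gzma (10.77), Gzmb (8.50), Il2rb (10.62) and Cd3g (10.42). Its mean of 16 T-cell genes was 7.25, below the 7.50 of the highest Pax5+/- array. Results are therefore given with and without wild-type replicate 2. Pax5+/- replicate 1 lay farthest out on the first principal component of the leukemic arrays, at 49.1, against -22.3 to 17.4 on the other 13 arrays. That component held 22.24% of the variance. Pax5+/- replicates 2 and 3 lay at 30 and 28.3 on the second component (15.59%), opposite wild-type replicate 2 at -27.4, and the others between -14.7 and 7.6. The mean correlation with the other arrays was lowest for Pax5+/- replicates 1 (0.946) and 2 (0.9538). The genotypes did not form separate blocks, since the median correlation between arrays was 0.9667 within Pax5+/-, 0.9708 within wild type and 0.9659 between genotypes.

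The protein made from Pax5 holds early lymphoid cells on the B-cell path: it switches on B-cell genes and keeps genes of other lineages off. Loss or mutation of 1 PAX5 allele is common in human B-cell acute lymphoblastic leukemia. In such leukemia the cells are arrested at the pro-B or pre-B stage, where the pre-B-cell receptor and the interleukin-7 receptor control growth and maturation.

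Pax5 itself gave signals of 10.74, 6.34, 10.67 and 10.03 in wild-type leukemias 1 to 4, and from 6.87 through a median of 8.34 to 11.37 in the Pax5+/- leukemias. The ranges overlapped, because wild-type replicate 2 was the lowest array and Pax5+/- replicate 2 the highest. The mean difference, Pax5+/- minus wild type, was -0.92 (95% interval -2.68 to 0.84). A two-sided exact permutation test gave p = 0.311, also 0.311 after adjustment over 3 tests of this gene. Without wild-type replicate 2 the difference was -1.95 (exact p = 0.0175, adjusted p = 0.05, not under the threshold of 0.05). 9 of the 10 Pax5+/- arrays lay below the other 3 wild-type arrays. The array left out was the lowest in Pax5 itself, so leaving it out widens the difference by construction. That p-value is therefore no support for a difference. In limma across all genes the adjusted p was 0.921 with and 0.999 without that array (range over the alternatives 0.701 to 0.999, and 0.419 in a further fit of 24 arrays without it). In the mice without leukemia the difference was -0.45 (exact p = 0.0333, adjusted p = 0.05). Whether the probe set covers the disrupted segment is not given in the sources used here, so the signal need not count intact transcripts.

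Across all genes the leukemias of the 2 genotypes were close to each other. In limma 1 of 15647 genes passed an adjusted p of 0.05 (0.00639% called), the cell-surface accessory gene Ly86, which was higher in Pax5+/- leukemias. 0 genes passed as lower, although 504 had an unadjusted p under 0.05 on that side (3.22%) and 470 on the higher side (3.0%), together 6.22% of the genes. The difference lay above 0 in 49.7% of all genes. Without wild-type replicate 2 the call was again Ly86 alone (0.00639%), with 281 genes higher (1.8%) and 343 lower (2.19%) at an unadjusted p under 0.05, together 3.99%. Differences of at least 1 on the log2 scale were found in 105 genes (0.671%), 35 of them higher (0.224%) and 70 lower (0.447%). The 10 Pax5+/- arrays lay wholly above the 4 wild-type arrays in 22 genes (0.141%) and wholly below them in 31 genes (0.198%). Without wild-type replicate 2 these counts were 35 (0.224%) and 54 (0.345%). A fit of all 24 arrays with a shared spread called 25 genes (0.16%), 8 higher (0.0511%) and 17 lower (0.109%). Arrays of 1 group spread by a median of 0.17 per gene (SD) in leukemic Pax5+/- and 0.133 in leukemic wild type, against 0.123 and 0.151 in preleukemic Pax5+/- and wild type.

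Ly86 encodes MD-1, a small secreted protein that binds the Toll-like receptor homolog RP105 on B cells and brings it to the surface. Its signal was 10.23, 9.55, 11.12 and 9.40 in wild-type leukemias 1 to 4, and 12.04, 12.18 and 12.48 as the lowest, median and highest of the Pax5+/- leukemias. All 10 Pax5+/- arrays lay above all 4 wild-type arrays, and their spread was narrow (12.24 ± 0.16, SD, n = 10, against 10.08 ± 0.78, SD, n = 4). The difference of 2.16 ± 0.23 (SE, 95% interval 1.67 to 2.66) was a 4.47-fold higher level (limma adjusted p = 0.00359). The fit took 1 spread for both groups, while the 4 wild-type arrays spread more widely, so the SE and adjusted p may be too small. Without wild-type replicate 2 the difference was 1.99 (adjusted p = 0.0291). Over the alternatives the difference ran from 1.94 to 2.51 and the adjusted p from 6.55e-06 to 0.703, the latter with 8 arrays and the replicate number as a block.

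The same gene separated the genotypes before leukemia. In mice without leukemia Ly86 was 10.34, 8.84 and 8.82 in wild type and from 10.95 through 11.33 to 11.50 in Pax5+/-. Those ranges did not overlap either, and the difference was 1.91 ± 0.27 (SE, limma adjusted p = 0.00429). The leukemic and the preleukemic difference differed by 0.25 ± 0.38 (SE, adjusted p = 0.928). Cd180, which encodes RP105, was 10.84, 9.60, 11.29 and 11.25 in wild-type leukemias and 10.67, 11.22 and 12.07 at the lowest, median and highest of the Pax5+/- leukemias. Its groups overlapped, and the difference of 0.48 (95% interval -0.14 to 1.11) was not called (adjusted p = 0.864). The region before the start of Ly86 is shown because this gene carried the only call. It spans chr13:37345095-37345344 on the plus strand in RefSeq's GRCm38.p6 annotation, 250 bases upstream of the gene.
Ly86: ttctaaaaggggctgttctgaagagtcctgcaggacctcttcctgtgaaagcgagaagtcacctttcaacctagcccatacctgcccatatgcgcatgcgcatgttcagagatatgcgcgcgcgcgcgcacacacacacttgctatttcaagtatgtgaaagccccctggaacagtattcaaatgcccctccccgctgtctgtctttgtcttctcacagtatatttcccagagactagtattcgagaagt
It is printed wholly in lower case, since it does not hold the 6-letter motif that is looked for below in erythroid genes.

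**Figure D1:**
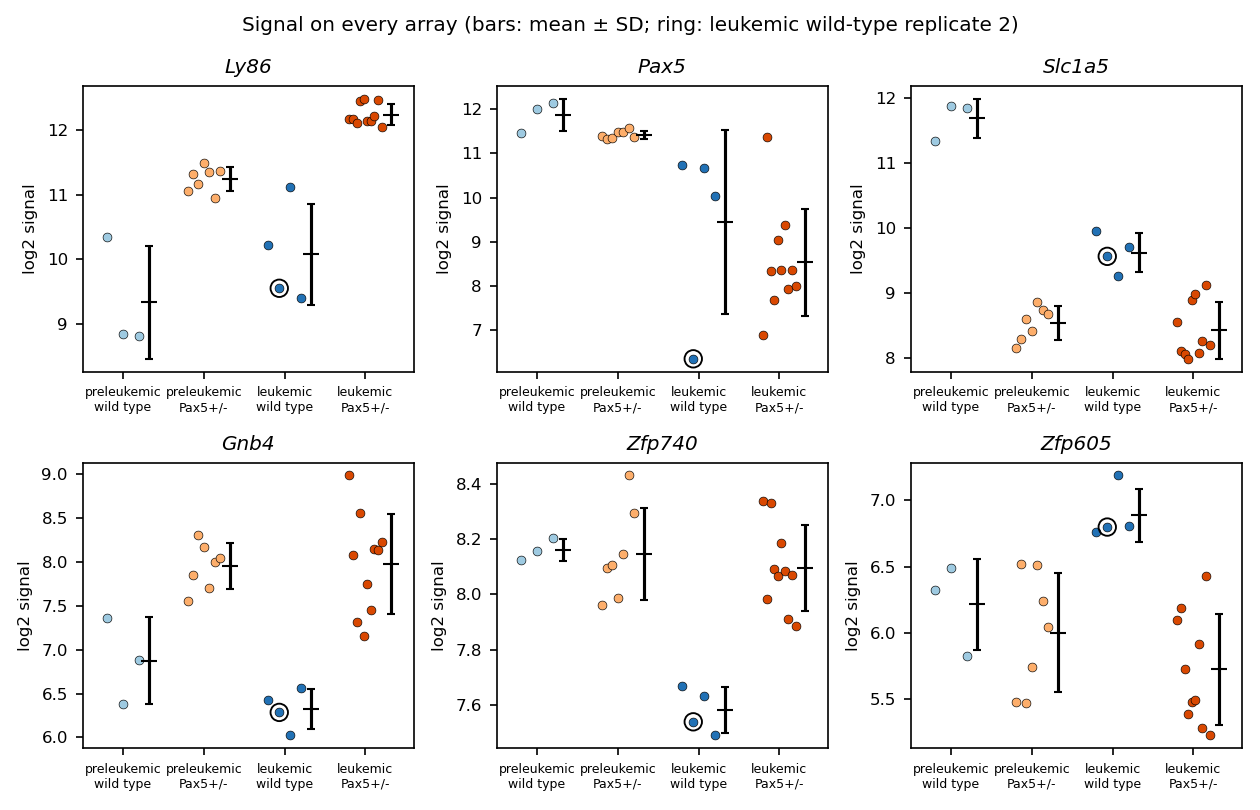
Log2 signal of Ly86, Pax5, Slc1a5, Gnb4, Zfp740 and Zfp605 (vertical axis, each panel with its own scale) on every array, by stage and genotype; points are mice, bars are mean ± SD, and the ring marks leukemic wild-type replicate 2. All 10 leukemic Pax5+/- points of Ly86 lie above the 4 leukemic wild-type points, while those of Pax5 overlap.

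The genes with the next smallest p-values on the higher side did not pass, and are given as values. Gnb4, a beta subunit of heterotrimeric G proteins, was 6.43, 6.29, 6.02 and 6.56 in wild-type leukemias and 7.16, 8.11 and 8.99 at the lowest, median and highest of the Pax5+/- leukemias. Its groups did not overlap, with a difference of 1.66 ± 0.28 (SE, 3.15-fold, limma adjusted p = 0.191). In mice without leukemia the Gnb4 difference was 1.08 and was called (adjusted p = 0.023), but not with array weights by group (adjusted p = 0.0643) or with a term for Y-linked signal (adjusted p = 0.0704). The difference between stages was 0.58 (adjusted p = 0.749).

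Zfp740, a zinc-finger protein gene, was 7.67, 7.54, 7.63 and 7.49 in wild-type leukemias and 7.88, 8.08 and 8.34 at the lowest, median and highest of the Pax5+/- leukemias. The groups were narrow and apart, with a difference of 0.51 ± 0.08 (SE, adjusted p = 0.182), while the preleukemic difference was -0.02. The difference between stages in this gene was 0.53 (adjusted p = 0.128). Dalrd3, Ociad1, Ccdc12, Ttbk2 and Tgfbr1, the last a receptor of transforming growth factor beta, were also wholly higher in Pax5+/- leukemias. Their differences were 0.45, 0.28, 0.32, 0.46 and 0.48, none of them called (adjusted p from 0.191 to 0.367). Sec22c, a vesicle transport gene, and H2-M3, a nonclassical class I histocompatibility gene, overlapped between groups, with differences of 0.35 and 0.64. In the fit of 24 arrays Gnb4, Zfp740, Dalrd3, Ccdc12 and H2-M3 passed (adjusted p from 0.00902 to 0.0467), while over all alternatives their adjusted p reached 0.816 to 0.982.

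On the lower side Slc1a5 stood out as a gene that was also called before leukemia. It encodes a transporter of glutamine and other neutral amino acids. Its signal was 9.96, 9.56, 9.25 and 9.71 in wild-type leukemias and 7.98, 8.23 and 9.13 at the lowest, median and highest of the Pax5+/- leukemias. All Pax5+/- arrays lay below all wild-type arrays, with a difference of -1.20 ± 0.22 (SE, 2.3-fold, limma adjusted p = 0.191). It was -1.22 without wild-type replicate 2 (adjusted p = 0.832, range over the alternatives 0.015 to 0.832). In mice without leukemia the difference was -3.15 (adjusted p = 2.55e-06), so the gap between genotypes was smaller in leukemia by 1.95 ± 0.31 (SE, adjusted p = 0.00358). The means behind this were 11.68 in preleukemic and 9.62 in leukemic wild type, and 8.53 and 8.42 in preleukemic and leukemic Pax5+/-.

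Other genes of smallest p on that side came from several functions. Zfp605, another zinc-finger gene, was 6.76, 6.80, 7.19 and 6.81 in wild-type leukemias and 5.23, 5.61 and 6.43 at the lowest, median and highest of the Pax5+/- leukemias. It was wholly lower, with a difference of -1.16 ± 0.21 (SE, adjusted p = 0.191, range over the alternatives 0.0369 to 0.816). The stress kinase gene Map2k3 was wholly lower too, by a small difference of -0.37 (adjusted p = 0.3). Myh10, a nonmuscle myosin heavy chain, and Armcx1 overlapped between groups at differences of -0.56 and -0.63 (adjusted p = 0.191 and 0.362). The transporter gene Abcg4 was wholly lower by -0.49 (adjusted p = 0.407). Without wild-type replicate 2 the smallest p-values also brought in Cdk5rap1 (-1.01), Tpmt (-0.57), Dcps (-0.50) and Calm3 (-0.50) as lower and Zswim8 (0.41) as higher. None of these was called (adjusted p from 0.816 to 0.999).

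Genes of red-cell precursors were among those with the largest differences, all of them lower in Pax5+/- leukemias on average. Car1, carbonic anhydrase of red cells, was 11.45, 10.78, 7.88 and 8.74 in wild-type leukemias and 5.42, 6.30 and 7.38 at the lowest, median and highest of the Pax5+/- leukemias. All Pax5+/- arrays lay below all wild-type arrays, but wild-type replicate 3 was only slightly higher. The difference was -3.31 ± 0.60 (SE, 9.94-fold, limma adjusted p = 0.191). Slc4a1, the red-cell anion exchanger band 3, was 11.50, 11.29, 7.49 and 9.16 in wild type and 6.36, 7.00 and 7.58 at the lowest, median and highest in Pax5+/-. Wild-type replicate 3 fell within the Pax5+/- range, and the difference was -2.86 ± 0.57 (SE, 7.26-fold, adjusted p = 0.284). Klf1, the master transcription factor of red-cell genes, was 7.08, 6.69, 5.68 and 5.90 in wild type and 5.20, 5.49 and 5.61 at the lowest, median and highest in Pax5+/-. Its groups did not overlap, and the difference was -0.88 ± 0.19 (SE, adjusted p = 0.407).

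The erythroid list held 14 genes, of which 10 were tested. All 10 had a difference below 0, and 9 had an unadjusted p under 0.05 on the lower side, where 3.22% of all genes did. The list's median difference was -1.36, against 0 to 2 decimals over all genes, and was -1.06 without wild-type replicate 2. The mean of the 10 genes was 9.02, 8.86, 6.50 and 7.20 in wild-type leukemias 1 to 4 and ran from 6.16 through 6.43 to 6.56 in Pax5+/-. Wild-type replicates 1 and 2 were far above every Pax5+/- array, replicate 4 was somewhat above, and replicate 3 was below 2 of the 10.

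Within the list the heme enzyme gene Alas2 differed by -2.63 and the membrane skeleton gene Epb42 by -1.82. Ermap, a red-cell membrane protein gene, differed by -1.69, Hemgn by -1.02, and both the erythropoietin receptor gene Epor and the transcription factor gene Gata1 by -0.69. Tfrc, the transferrin receptor of all dividing cells, differed by -0.34 and was the member without a small p (0.128 before adjustment). Outside the list the claudin gene Cldn13, at or under the dim level on all 10 Pax5+/- arrays, was at least 4.03-fold lower, and the heme enzyme gene Cpox differed by -1.20. Rhag, the Rh-associated glycoprotein gene of the list, was also at or under the dim level on all 10 Pax5+/- arrays, and was at least 4.24-fold lower on the means.

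None of the erythroid genes was called in the fit of the 14 leukemic arrays. With wild-type replicate 3 left out, 55 genes were called (0.352%), 5 of them higher (0.032%) and 50 lower (0.32%). These took in 6 of the 10 erythroid genes. Replicate 3 had the lowest erythroid mean of the wild-type arrays, so leaving it out widens these differences by construction. The calls without it are therefore no support. In that fit Slc4a1 had a difference of -3.65 (adjusted p = 0.00936, range over the alternatives 0.00936 to 0.999). Car1 had one of -3.92 (adjusted p = 0.0246, range 0.0221 to 0.928). The fit of 24 arrays called 3 of the 10. In mice without leukemia the list's median difference was -0.31, and Car1 and Slc4a1 differed by -0.59 and -0.98 (adjusted p = 0.75 and 0.517). These lower values rested on wild-type replicate 1, without which the median was 0.04 and the differences were 0.45 and 0.04. Whether the leukemic values followed the share of red-cell precursors in each marrow was not tested.

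The promoters of Alas2 and Epor are shown because their upstream regions hold the letters bound by GATA factors, the family of the red-cell factor Gata1. The motif searched was AGATAA on either strand, which reads TTATCT on the other, and capitals mark it. Both sequences are the 250 bases before the gene's start in RefSeq's GRCm38.p6 annotation, read along the gene's strand. Alas2 spans chrX:150547167-150547416 on the plus strand, with the motif 86 bases before the start. Epor spans chr9:21963577-21963826 on the minus strand, with the motif 54 bases before the start.
Alas2: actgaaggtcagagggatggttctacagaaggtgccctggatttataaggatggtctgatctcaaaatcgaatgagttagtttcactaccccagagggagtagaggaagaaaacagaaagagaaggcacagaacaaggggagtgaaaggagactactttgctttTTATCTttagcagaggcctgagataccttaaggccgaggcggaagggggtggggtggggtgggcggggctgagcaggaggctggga
Epor: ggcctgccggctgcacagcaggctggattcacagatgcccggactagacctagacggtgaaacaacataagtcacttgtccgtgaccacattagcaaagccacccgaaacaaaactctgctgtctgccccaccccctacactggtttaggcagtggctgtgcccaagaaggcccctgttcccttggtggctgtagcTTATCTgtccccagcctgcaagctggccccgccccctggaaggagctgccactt
Of the 9 tested erythroid genes with a listed promoter, 3 held the motif (Alas2, Epor and Epb42). Of all 32851 promoters of that length 9.99% held it. The former counts genes and the latter counts promoters, so these rates cannot be compared. A match is a description of these letters and not a binding site.

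**Figure D2:**
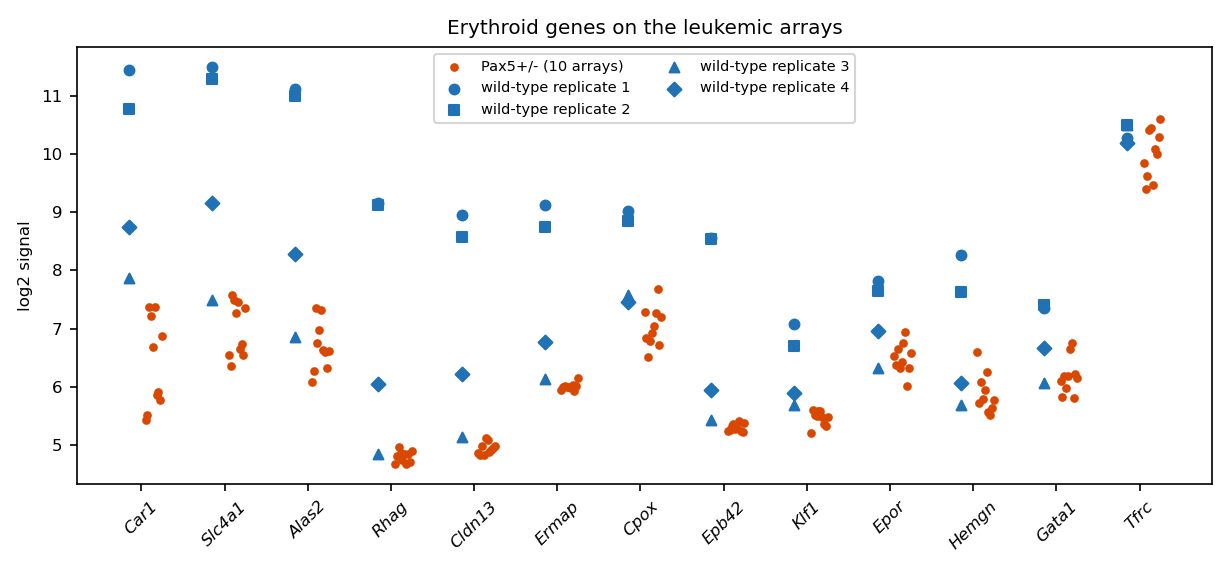
Log2 signal (vertical axis) of 13 erythroid genes on the 14 leukemic arrays; small points are the 10 Pax5+/- arrays and the blue symbols are wild-type replicates 1 to 4. Wild-type replicates 1 and 2 lie highest in most genes, and replicate 3 lies near or within the Pax5+/- points.

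Natural killer cell genes were high chiefly on wild-type replicate 2. Ncr1, a receptor of natural killer cells, was 5.49, 10.41, 4.83 and 5.24 in wild-type leukemias and 4.79, 5.00 and 5.32 at the lowest, median and highest in Pax5+/-. The cytotoxic granule gene Gzma was 4.59, 10.77, 4.86 and 4.98, with 4.57, 4.71 and 7.18 in Pax5+/-. Replicate 2 was the one high wild-type array in both genes, and 8 of the 10 Pax5+/- arrays were at or under the dim level in each. The mean of the NK-cell genes was 6.31, 9.28, 5.90 and 5.84 in wild type and ran from 5.86 to 7.30 in Pax5+/-. The median difference over 11 tested NK-cell genes was -0.61 with and 0.21 without this array, and 0 of them were called by limma in either setting or had an unadjusted p under 0.05 with all arrays.

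Interferon genes were high on the same array. The mean of 17 type I interferon response genes was 7.41, 8.93, 6.70 and 6.74 in wild-type leukemias and ran from 6.46 through 7.25 to 7.97 in Pax5+/-. The array of high NK-cell genes was also the highest here, and the list's median difference turned from -0.09 to 0.30 without it. The antiviral gene Rsad2 was 9.76, 10.28, 5.75 and 6.58 in wild type and 5.70, 6.14 and 6.72 at the lowest, median and highest in Pax5+/-. Replicates 1 and 2 were high, and the difference of -1.96 was not called (adjusted p = 0.571). Cd3g, a T-cell receptor chain, was 10.42 in wild-type replicate 2 and at most 6.28 in the other wild-type arrays, while Pax5+/- replicates 1 and 4 had 9.68 and 9.28. The stem-cell factor receptor gene Kit was 7.86, 10.47, 7.28 and 8.13 in wild type and 7.26, 8.08 and 11.62 at the lowest, median and highest in Pax5+/-, with a difference of 0.13, while before leukemia Kit was called lower in Pax5+/- (-0.77, adjusted p = 0.00124). The share of lymphocytes other than the leukemia in these samples was not tested.

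**Figure D3:**
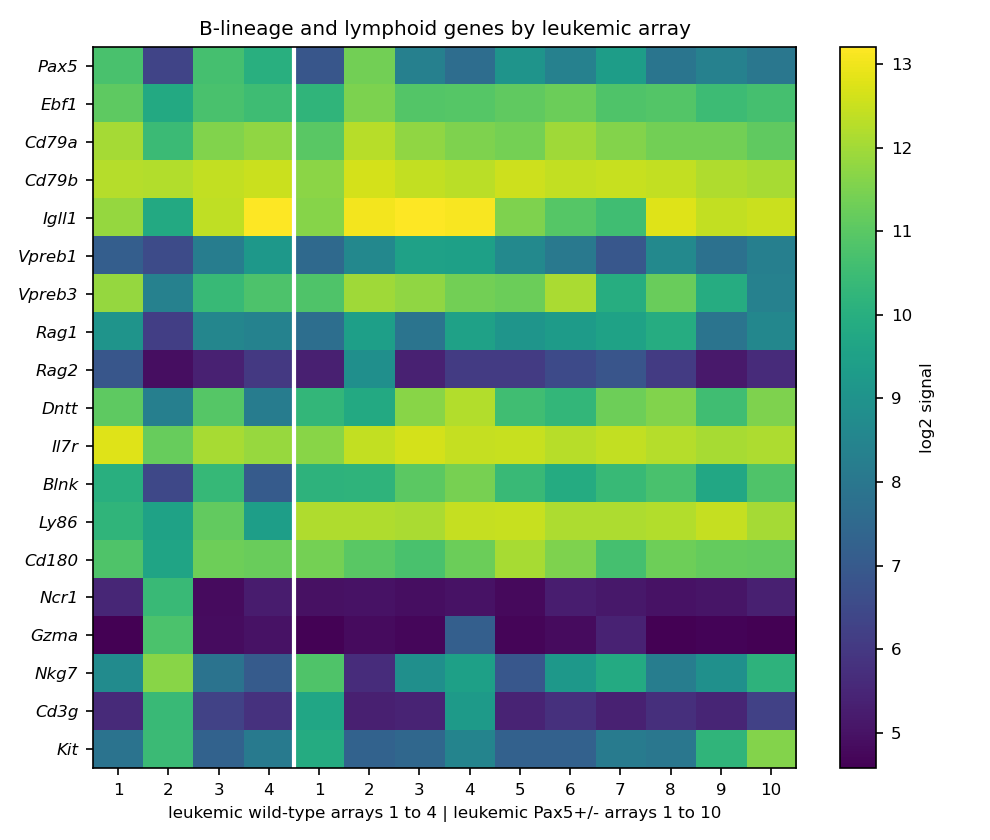
Log2 signal (colour) of 19 B-lineage and lymphoid genes (rows) on the 4 wild-type and 10 Pax5+/- leukemic arrays (columns), to be read along a row. Wild-type array 2 is dark in Pax5, Rag1 and Blnk and bright in Ncr1 and Gzma, and Ly86 is brighter on all Pax5+/- arrays.

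Genes that Pax5 activates in B cells lay mostly above 0 in the leukemic difference, none of them called. Of 22 tested members 18 had a difference above 0, 3 had an unadjusted p under 0.05 on the higher (3.0% of all genes) and 1 on the lower side (3.22%), and the median difference was 0.14. Without wild-type replicate 2 the median was 0.09, and 1 member had such a p on the higher side, where 1.8% of all genes did. The array means were 8.61, 7.96, 8.14 and 8.15 in wild type and ran from 7.91 to 9.00 in Pax5+/-, so the groups overlapped. Single targets differed by 0.34 in the B-lineage factor gene Ebf1, 0.08 in Cd79a (a direction kept in 21 of 25 alternatives), 0.15 in Fcrla, -0.18 in the surface gene Cd72 and -0.47 in Ikzf3. None of these was called (adjusted p from 0.88 to 0.987). Genes that Pax5 represses divided evenly, 11 of 22 above and 11 below 0, at a median of 0 to 2 decimals.

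Of the 35 lists the pre-B-cell receptor signalling genes were the one whose array means did not overlap upward. Their mean was 10.18, 9.78, 10.16 and 9.95 in wild-type leukemias and 10.19, 10.40 and 10.58 at the lowest, median and highest in Pax5+/-. The lowest Pax5+/- array exceeded wild-type replicate 1 by little. Of 16 tested members 13 were above 0 and 4 had an unadjusted p under 0.05 on the higher side (3.0% of all genes). The median difference was 0.17, and 0.08 without wild-type replicate 2. Taken singly, 0 of the 16 members had all Pax5+/- arrays above all wild-type arrays, while 0.141% of all genes did.

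Blnk, the adaptor that links the receptor to its downstream kinases, was 10.04, 6.45, 10.36 and 7.05 in wild type and 9.74, 10.42 and 11.44 at the lowest, median and highest in Pax5+/-. Replicates 2 and 4 were the low arrays, and the difference was 2.01 (adjusted p = 0.517), or 1.33 without replicate 2. Pik3ap1, an adaptor for phosphoinositide 3-kinase, differed by 0.69 (adjusted p = 0.454). The kinase genes Syk and Btk differed by 0.18 and 0.09. Dntt, the polymerase that adds bases at V(D)J joints, followed the same arrays as Blnk, with 11.08, 8.30, 10.94 and 8.21 in wild type and 9.81, 10.93 and 12.23 at the lowest, median and highest in Pax5+/-. Its difference was 1.35 (adjusted p = 0.753), and 0.91 without replicate 2.

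The other B-stage genes moved little on average and widely between arrays. Of 21 tested pro-B and pre-B genes 18 lay above 0, with a median of 0.30 that was 0.11 without wild-type replicate 2. The surrogate light chain genes Vpreb1 and Igll1 differed by 0.57 and 0.37, the recombinase genes Rag1 and Rag2 by 0.85 and 0.41, and Vpreb3 by 0.53. For Igll1 the difference turned to -0.30 without wild-type replicate 2. Mature B-cell genes had a median of 0.29 in both settings, and plasma-cell genes one of -0.04, which was 0.02 without the array. Ell2, an elongation factor gene of the plasma-cell list, differed by -0.63 (adjusted p = 0.542).

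MHC class II genes, which present peptides to helper T cells, had all 8 tested members above 0 at a median of 0.66 (0.55 without wild-type replicate 2). The mean was 8.66, 7.72, 8.61 and 8.42 in wild type and 8.10, 8.80 and 11.15 at the lowest, median and highest in Pax5+/-. The groups overlapped in 5 Pax5+/- arrays, and replicate 1 was the highest. H2-Ob, a class II peptide-loading modulator, differed by 1.31 (unadjusted p = 0.0227, adjusted p = 0.722), H2-Ab1 by 1.05 and the class II transactivator gene Ciita by 0.59. Ciita was 9.73 in Pax5+/- replicate 1, against a median of 6.52. NF-kB response genes lay above 0 in 12 of 13 members, with a median of 0.15, among them the inhibitor gene Nfkbie at 0.42 and the subunit gene Rela at 0.15. RAS and MAPK genes lay above 0 in 13 of 15, with a median of 0.19.

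Proliferation genes leaned the other way by small amounts. Of 23 mitosis genes 22 lay below 0 at a median of -0.22, of 28 DNA replication genes 26 at a median of -0.15, and of 19 MYC target and ribosome biogenesis genes 16 at a median of -0.12. The mitosis mean was 9.33, 9.55, 9.67 and 9.65 in wild type and ran from 8.78 to 9.74 in Pax5+/-, with most arrays of both groups in the same range. Birc5, a chromosomal passenger gene, differed by -0.37 (unadjusted p = 0.0293, adjusted p = 0.741) and the mitotic kinase gene Aurka by -0.32. Rrm2, a ribonucleotide reductase subunit, differed by -0.51, Gins4 by -0.27 and Npm1 by -0.26, none of them called. 1 mitosis gene and 0 replication genes had an unadjusted p under 0.05 on the lower side, where 3.22% of all genes did, and no list member was called by limma in either direction.

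DNA-damage genes, which the title of the study names, were close between the leukemic genotypes. Medians were -0.03 for 20 damage sensing and checkpoint genes (-0.08 without wild-type replicate 2), -0.05 for 22 homologous recombination and Fanconi genes (-0.13) and -0.03 for 14 end-joining genes (0.00). They were -0.04 for 16 base-excision genes (-0.05) and 0.01 for 17 mismatch and nucleotide-excision genes (0.01). Unadjusted p-values under 0.05 were found in 1 higher and 1 lower of these members, while 3.0% and 3.22% of all genes had one. Nbn, part of the double-strand break sensor, was 7.36, 7.90, 8.05 and 7.36 in wild type and 7.77, 8.00 and 8.58 at the lowest, median and highest in Pax5+/-. The groups overlapped, and the difference was 0.37 (95% interval 0.05 to 0.70, adjusted p = 0.727). Lig1, a DNA ligase, differed by -0.31 (-0.58 to -0.04, adjusted p = 0.741), Trp53bp1 by 0.17 (-0.02 to 0.35) and the nucleotide-excision gene Xpc by 0.37 (-0.09 to 0.83).

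The 21 tested p53 target genes had a median of 0.03, with array means of 7.82, 7.61, 7.46 and 7.55 in wild type and 7.51 to 7.91 in Pax5+/-. Mdm2, the p53 inhibitor, differed by 0.14 (-0.03 to 0.30), and the growth arrest gene Gadd45a by -0.50 (-0.88 to -0.12, adjusted p = 0.639). Bcl2l1, the survival gene of Bcl-xL that red-cell precursors also use, was 8.18, 8.66, 7.36 and 7.61 in wild type and 6.98, 7.30 and 7.71 at the lowest, median and highest in Pax5+/-. Replicates 1 and 2 were the high arrays, as in the erythroid genes, and the difference was -0.65 (adjusted p = 0.522). The BCL2 family as a list had a median of 0.04.

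Genes of granulocytes leaned lower in Pax5+/- leukemias without a call, while lists of other marrow cells differed among themselves. All 20 granulocyte genes lay below 0 at a median of -0.85 (-0.62 without wild-type replicate 2). Their mean was 9.83, 9.39, 8.95 and 7.92 in wild type and 6.20, 8.08 and 10.46 at the lowest, median and highest in Pax5+/-. 5 of the 10 Pax5+/- arrays lay below all wild-type arrays and 2 above them, so the groups overlapped. Retnlg, a neutrophil gene, differed by -1.94 (adjusted p = 0.727), and the monocyte chemokine receptor gene Ccr2 by -2.16 (adjusted p = 0.631). Medians were -0.22 for 16 monocyte and macrophage genes (-0.11 without wild-type replicate 2), -0.29 for 7 megakaryocyte and platelet genes (-0.36) and -0.12 for 14 stromal and endothelial genes (-0.08). The other way lay 13 dendritic-cell genes, 10 of them above 0 at a median of 0.29 (0.21), while 16 T-cell genes divided 8 to 8 at a median of 0 to 2 decimals (0.15). With the granulocyte mean as a covariate Ly86 differed by 2.18 (adjusted p = 0.0174).

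**Figure D4:**
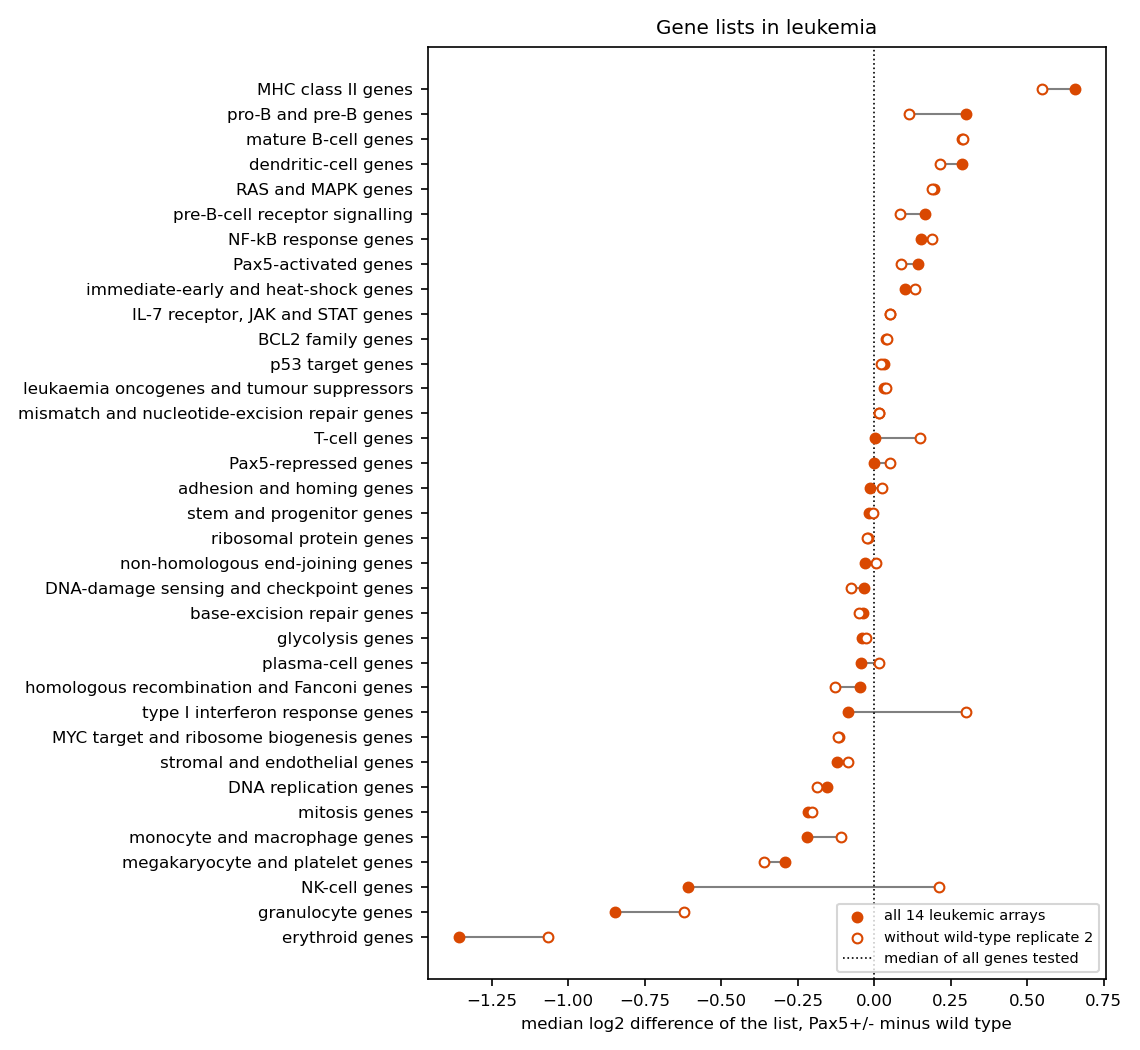
Median log2 difference of each of the 35 gene lists, Pax5+/- minus wild type in leukemia (horizontal axis), with all 14 arrays (filled) and without wild-type replicate 2 (open); the dotted line is the median of all genes tested. Erythroid genes lie lowest at -1.36 and MHC class II genes highest at 0.66, and the NK-cell and interferon lists cross 0 without that array.

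Genes that are often altered in B-cell leukemia, 29 in number, were read in full. Of these 25 were tested and 4 were not analysed here. 0 were called by limma (3 had an unadjusted 95% interval that did not hold 0, as 6.22% of all genes did), and 22 had intervals that held 0. The 3 were Ikzf1, the lymphoid factor Ikaros, with 0.21 (0.01 to 0.41, adjusted p = 0.76), Blnk and Dntt. Intervals were narrow for Nras (-0.19 to 0.11), Cdkn2a (-0.12 to 0.19), Ptpn11 (-0.30 to 0.41) and Tcf3 (-0.28 to 0.52). They were wide for Kit (-1.63 to 1.88), Igll1 (-0.93 to 1.66), Flt3 (-0.82 to 1.47) and Stat5b (-1.85 to 0.43). Il7r differed by 0.30 (-0.18 to 0.78), Jak2 by 0.23 (-0.56 to 1.01), Myc by 0.05 (-0.90 to 1.00) and Bcl2 by 0.67 (-0.35 to 1.70).

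Several of these genes were high or low in single leukemias. Flt3, a receptor kinase of early progenitors, was 13.28 in Pax5+/- replicate 4, between 9.27 and 11.43 in the other 9, and between 10.36 and 10.70 in wild type. Kit was 11.62 in Pax5+/- replicate 10. Stat5a and Stat5b, neighbouring genes of cytokine signalling, were 9.88 and 11.08 in Pax5+/- replicate 6, against 8.12 and 8.99 as the next highest Pax5+/- values. Both were also high in wild-type replicate 2 (11.05 and 10.83), and Stat5b in wild-type replicate 3 (10.69). Jak1, a kinase of the interleukin-7 receptor, was 12.56 in Pax5+/- replicate 7 and at most 10.84 on the other 13 arrays. Myc was 9.09 in Pax5+/- replicate 3 and 9.97 in wild-type replicate 1, and at least 11.18 elsewhere. High leukemias thus occurred in both genotypes for Stat5a and Stat5b, and low ones for Myc.

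The leukemic differences were then set beside those before leukemia, which come from other mice and share no array with them. The preleukemic samples are labelled pro/pre-B cells and the leukemic ones B cells, so stage and sampled population cannot be told apart. Before leukemia 249 genes were called between genotypes (1.59%), 77 higher (0.492%) and 172 lower (1.1%) in Pax5+/-. Ly86 was the gene called in both stages, 1 of the 1 leukemic and 1 of the 249 preleukemic calls. Of the 77 genes called higher before leukemia 54 (70.1%) were also above 0 in leukemia, with a median difference of 0.13. Of the 172 called lower 89 (51.7%) were below 0 in leukemia, with a median of -0.01, while 50.9% of all genes had the same sign in both stages. The preleukemic counts rest on few wild-type arrays: replicate 1 had a granulocyte mean of 10.31 against 6.56 and 6.61 in the other two, and leaving out each in turn gave 356, 324 and 101 calls. Weights that let the groups spread unequally left 107 calls, Ly86 among them (adjusted p = 0.00704).

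The difference between the stages was called in 29 genes (0.185%). The genotype difference, Pax5+/- minus wild type, was higher in leukemia in 28 of them (0.179%) and lower in 1 (0.00639%). Of these 29 genes 27 were called lower in Pax5+/- before leukemia, 21 had opposite signs in the stages, and 5 had an unadjusted p under 0.05 in leukemia, as 6.22% of all genes did. Both stage differences enter the contrast that selected the 29, so these counts follow in part from the selection. Tmc7, a transmembrane channel-like gene, differed by -1.51 before leukemia and by 0.04 in leukemia (difference between stages 1.55, adjusted p = 3.63e-05), but it was at or under the dim level on all 4 wild-type and 9 of the 10 Pax5+/- leukemic arrays. Edaradd, an adaptor of a TNF receptor family member, differed by -1.97 and -0.02 (difference 1.95, adjusted p = 0.000246). Dock9, an activator of the GTPase CDC42, turned from -1.72 before leukemia to 1.06 in leukemia (difference 2.79, adjusted p = 0.000933). Its leukemic signals were 6.59, 7.12, 6.70 and 6.57 in wild type and 6.83, 7.99 and 8.49 at the lowest, median and highest in Pax5+/-. 8 of the 10 Pax5+/- arrays exceeded all wild-type arrays, and the leukemic difference alone was not called (adjusted p = 0.426). The antiviral deaminase gene Apobec3 went from -2.56 (adjusted p = 2.55e-06) to 0.39 (adjusted p = 0.945), a difference between stages of 2.95 that did not pass (adjusted p = 0.085).

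**Figure D5:**
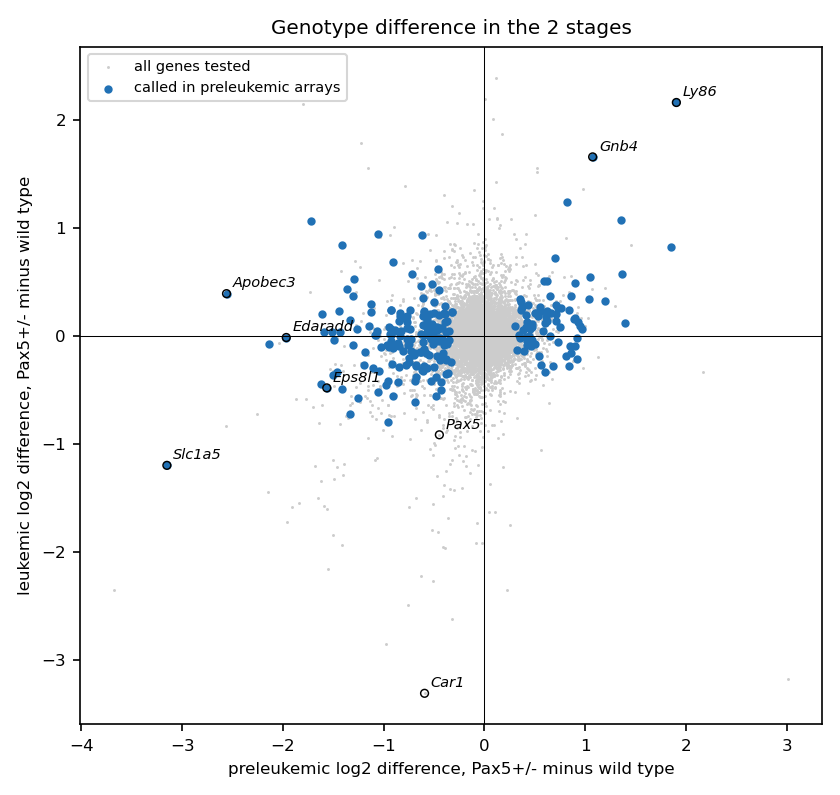
Log2 difference between genotypes, Pax5+/- minus wild type, before leukemia (horizontal axis) and in leukemia (vertical axis), 1 point per gene; blue points were called before leukemia. Ly86 lies at 1.91 and 2.16, Slc1a5 at -3.15 and -1.20, and most other blue points lie near 0 on the vertical axis.

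The sex of the mice is not in the labels. Y-linked genes were low on all 4 leukemic wild-type arrays and high on 5 and low on 5 leukemic Pax5+/- arrays. Before leukemia they were high on all 3 wild-type arrays and high on 4 and low on 3 Pax5+/- arrays, so in wild type stage and Y-linked signal cannot be told apart. With a term for this split limma again called 1 gene in leukemia, 157 before leukemia (142 of them among the 249) and 27 for the difference between stages (21 of them among the 29). Ly86 then differed by 2.26 in leukemia (adjusted p = 0.0192).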

How the data were processed

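Total RNA of bone marrow cells was hybridised to mouse gene arrays, 1 array per mouse, and the authors deposited 1 table of log2 signals for 24 arrays. Per the submitters' processing notes RMA in oligo was used; the sources used here name no version. RMA evens out array distributions, so a change shared by most genes is not visible, and low signals understate differences. Depth does not apply to arrays; their number limits the precision.

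Of 35556 probe sets 21789 carried 1 gene symbol in the platform annotation, 1621 several and 12146 none, and the first were used. For 999 genes with several probe sets the one with the highest mean was kept. Genes above the 30th percentile of an array on at least 3 of 24 arrays were tested, 15647 of 19938. Array groups came from the labels. Limma 3.58.1 in R 4.3.3 was fitted to the 14 leukemic arrays with Benjamini-Hochberg adjustment over all genes, called at 0.05, and again without wild-type replicate 2. Preleukemic arrays were fitted alone, and the difference between stages on 24 arrays. Pax5 was also tested by exact permutation of the absolute difference of means (scipy 1.17.1). Fits were tested on simulated data: with 1 spread shared by the groups, unchanged genes were called about as often as the threshold allows, but with each group's own spread more often, most of all in the preleukemic fit and least in the leukemic one. In the leukemic fit with own spreads 23 of 198 simulated calls were false. The preleukemic and stage counts may therefore be too high, and the leukemic call has the same limit. Replicates are separate mice, per the series text.

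Alternatives were another probe-set rule, other filters, scalings and variance models, the replicate block, covariates and leaving out each array. Named were Pax5, called genes filled to 10 per direction by smallest p (with and without wild-type replicate 2), up to 4 called or else 2 smallest-p members of each list, genes called in both stages and a panel of 29. Antigen receptor segments, predicted genes, small RNAs, Y-linked genes and Xist were left out. Cd180, Vpreb3, Ciita, Gzmb, Il2rb, Cd3g, Aurka, Syk, Btk and the other list members named beside them were chosen after their values were seen. The members and the 35 lists (541 genes tested) were chosen with earlier results of these data known.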

Additional observations from a re-analysis of the deposited data

Results flagged for a closer look

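Single arrays lay far from the rest of their group in 31 of 226 group tests (13.7%). The rule divides the gap to the nearest array by the group's range, so small gaps can count in narrow groups. The chance rate of this rule is about 1 in 20. These genes were chosen partly by their values and share the same arrays, so the 2 rates cannot be compared. In wild-type leukemias replicate 2 was far low in Pax5 (6.34, next 10.03) and far high in the lymphocyte genes Ncr1 (10.41, next 5.49) and Gzma (10.77, next 4.98). The other wild-type arrays stood out in single genes. These were Myc (9.97, next 11.48) and Sec22c (6.02, next 5.69) in replicate 1. In replicate 3 it was Zfp605 (7.19, next 6.81), and in replicate 4 Ociad1 (10.15, next 10.28).

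In Pax5+/- leukemias replicate 6 was far high in both Stat5a (9.88, next 8.12) and Stat5b (11.08, next 8.99). Replicate 7 was far high in the kinase gene Jak1 (12.56, next 10.75) and far low in the replication and repair genes Rrm2 (8.23), Rad54l (7.5) and Lig1 (8.68) and in the calmodulin gene Calm3 (9.85). Replicate 1 was far high in Jak2 (10.36) and the class II gene H2-DMa (10.74) and far low in the transcription factor gene Erg (8.45). Replicate 2 was far high in Tcf3 (10.51, next 9.59) and the recombinase gene Rag2 (8.88, next 6.84). Replicate 3 was far low in Myc (9.09, next 11.18) and far high in the phosphatase gene Ptpn11 (10.37). Replicate 4 was far low in the adaptor gene Sh2b3 (7.73, next 9.07). It was far high in Gzma (7.18, next 5.41), Ociad1 (10.73, next 10.56) and Myh10 (6.3, next 5.95). Replicate 10 was far high in Cdk5rap1 (7.81, next 6.98), Npm1 (11.36, next 11.12), Rpl5 (12.34, next 12.17) and Nbn (8.58, next 8.18). Replicate 5 was far high in Ccr2 (9.3, next 7.09), and replicate 9 was far low in Gadd45a (6.75, next 6.96).

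The genotype difference of Slc1a5 itself differed between the stages, by 1.95 (limma adjusted p = 0.00358). It was -3.15 before leukemia and -1.20 in leukemia.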

How the results depend on the processing

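Pax5 stayed below 0 and uncalled under 25 planned and both added alternatives, its difference running from -1.95 to -0.49, the extremes with 1 wild-type array left out. The number of called genes, 1 with 14 arrays, was 25 in the fit of 24 arrays (1 without wild-type replicate 2), 2 with arrays centred on their median and 1 to 55 when 1 array was left out in turn. The highest value was without wild-type replicate 3, and 4 genes were called without wild-type replicate 1. Replicate numbers 1 to 4 occur in both groups, but the deviations of same-numbered arrays correlated at 0.138, -0.222, -0.274 and -0.108, and no array correlated best with its own number. With the replicate block on those 8 arrays limma called 0 genes (1051 at an unadjusted p under 0.05), and 0 on the same 8 arrays without the block (1242). Preleukemic calls, 249 in the 10 arrays, ran from 101 to 356 when 1 wild-type array was left out, and were 107 with array weights by group and 157 with a term for Y-linked signal. Stage differences, 29 in all, ran from 22 to 48 over their alternatives, the highest without preleukemic wild-type replicate 1. Of 112 named genes 100 kept their direction under every alternative run and 12 turned in at least 1 (Cd79a, Cdkn2a, Erg, Gzma, Igll1, Kit, Myc, Nras, Ptpn11, Rag2, Sh2b3 and Tcf3). Of 874 recomputed list medians 873 moved by less than the spread between arrays. The immediate-early and heat-shock median became 0.36 in the block. The 8-array fit without the block, the 24-array fit without wild-type replicate 2, and, for the preleukemic calls, the leave-outs were chosen after seeing the data. So were the weights and the Y-linked term in the preleukemic and stage fits. Causes of these shifts were not tested. Depth is not defined for arrays, and Rhag and Cldn13, at or under the dim level on all Pax5+/- arrays, have only bounds.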

Other observations

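Of the 50 named genes with the smallest p-values between the leukemic genotypes, 8 lay on chromosome 3, which holds 4.55% of the genes tested, and 7 on chromosome 9, which holds 5.75%. Those on chromosome 3 were Gnb4, Car1, Adh6b, Gstm5, Map9, Pklr, Tent5c and Il12a, and those on chromosome 9 Dalrd3, Ccdc12, Sec22c, Abcg4, Rpsa, Dcps and Rtp3. Pax5 lies on chromosome 4, where 2 of the 50 lay (Tgfbr1 and Ermap), against 6.25% of the genes tested. This split was chosen after seeing the data and was not tested.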
